A study of Mus musculus with 1024 samples.

Results

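KO endothelial wells were divided by whether they held any read of EYFP, the fluorescent reporter that Cre switches on, and the 2 classes were compared with each other within each cell sort. The wells came from aortas of mice aged 3 months and were labelled Endothelial (Cd31+Cd45- by flow cytometry) with genotype KO_sort_1 or KO_sort_2. A well was taken when it had at least 20000 counts on genes, at least 500 detected genes and a Cdh5 count, which left 376 of the 1024 wells of the study. Of these, 300 had an EYFP count of 1 or more (EYFP-positive) and 76 had none (EYFP-negative). Since the EYFP count chose the classes, EYFP is described here without a test and was left out of every fit.

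Every well, WT included, carries the strain label Amotl2flow/flow / Cdh5-RREert /ROSA26-EYFP. KO mice are floxed Amotl2 mice with a tamoxifen-inducible CreERT2 driven by the Cdh5 promoter, and tamoxifen was injected into adults on a C57BL/6 background. Animals of both sexes were used in the study as a whole, and sex-linked reads of these wells are given below. For these cells 6 mice of each genotype were pooled over 2 sorts, and the labels name no single mouse. A sort was thus the replicate. Classes were compared within each sort, and p-values do not measure the spread between mice. They rest on how class differences varied over 2 sorts and, for the larger part, on a spread shared over all genes. A small p therefore does not say that the 2 sorts gave differences of like size. In sort 1 WT and KO cells had a plate each, and a plate difference cannot be told apart from a genotype difference in that sort, whereas both EYFP classes of a sort shared a plate and a pool of mice. The comparison addressed whether KO endothelial cells (ECs) with and without a trace of recombination differed, including in the floxed gene itself.

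AmotL2 is a scaffold protein of the angiomotin family that couples VE-cadherin, the adhesion receptor encoded by Cdh5, to actin filaments and also binds YAP, the effector of the Hippo pathway. In the ROSA26-EYFP reporter a stop cassette between loxP sites is cut out by Cre, after which the cell and its descendants make EYFP. The reporter and the floxed gene are recombined in separate events. A cell can thus have lost the cassette at one locus and kept a floxed allele at the other.

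The floxed gene lies on the plus strand of chr9:102716672-102733418 (GRCm38, GENCODE M21) and its main transcript has 10 exons, with the start codon in exon 2. The exon removed in the KO is exon 3, a coding exon of 295 bases at chr9:102723569-102723863, shown because its loss defines the KO allele while the counts of the table are summed over the whole gene. Its length leaves a remainder of 1 on division by 3, so joining exon 2 to exon 4 shifts the reading frame. In the shifted frame the first stop follows after 43 bases of exon 4 and is set in capitals in the second sequence (chr9:102724687-102724732).
Amotl2 exon 3: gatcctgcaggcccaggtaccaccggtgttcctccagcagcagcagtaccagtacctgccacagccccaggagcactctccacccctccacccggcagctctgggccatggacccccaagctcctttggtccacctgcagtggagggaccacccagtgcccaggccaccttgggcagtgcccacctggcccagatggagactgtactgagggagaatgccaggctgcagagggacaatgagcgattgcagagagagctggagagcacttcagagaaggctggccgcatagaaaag
Amotl2 exon 4 up to the first stop in the shifted frame: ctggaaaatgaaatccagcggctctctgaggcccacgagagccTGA
Reads on the exons that remain still count as Amotl2, so an Amotl2 count in a KO well does not say that the allele was intact. The paper checked recombination in KO ECs through the loss of exon 3 from Amotl2 reads and through reporter expression. The counts per gene used here do not measure the deletion itself.

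EYFP reads were found in most KO ECs. In sort 1, 224 of 287 wells were positive (78.0%, 95% exact binomial interval 72.8 to 82.7), and in sort 2, 76 of 89 (85.4%, 76.3 to 92.0). Among WT endothelial wells passing the same filters 4 of 215 in sort 1 (1.86%) and 2 of 48 in sort 2 (4.17%) held EYFP reads. Whether these WT mice carried Cre and received tamoxifen is not given in the sources used here, so this share cannot be read as background or as recombination. In the Cd31-Cd45- gate of KO mice, which was sorted as a control, none of 40 wells in sort 1 and none of 14 in sort 2 did, which allows shares of up to 7.5% and 21.4%. These intervals and limits cover the sampling of wells only, since the labels name no single mouse. Smart-seq2 reads carry no molecular identifiers and so do not count molecules.

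The level of EYFP in positive wells ranged widely. In sort 1 it ran from 1.44 to 766 CPM (counts scaled to a common library size) with a median of 122, and in sort 2 from 8.36 to 485 CPM with a median of 80.7. The wells just inside the threshold held a single EYFP read, 12 in sort 1 and 16 in sort 2, and the wells just outside it held none. A further 3 and 6 wells held 2 reads, and 7 and 4 wells held 3.

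What a count of 0 says depended on depth, and the sorts differed in this. EYFP-negative wells had a median of 242020 counts on genes in sort 1 and 37368 in sort 2, against 281760 and 64002 in EYFP-positive wells. A level of 3 counts, the limit a count of 0 allows, corresponded to a median of 12.4 CPM in negative wells of sort 1 and 80.3 CPM in those of sort 2. In sort 1 this limit lay below the median EYFP level of positive wells in all 63 negative wells and below their lower quartile of 67.2 CPM in 56 of them. In sort 2 it lay below the positive median in 7 of 13 negative wells and below the lower quartile of 39.4 CPM in 1, so at this depth most negative wells of sort 2 could not be told from weakly positive ones. The 12 single-read wells of sort 1 had a median of 61276 counts, and the 16 of sort 2 had 32196.

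**Figure D1:**
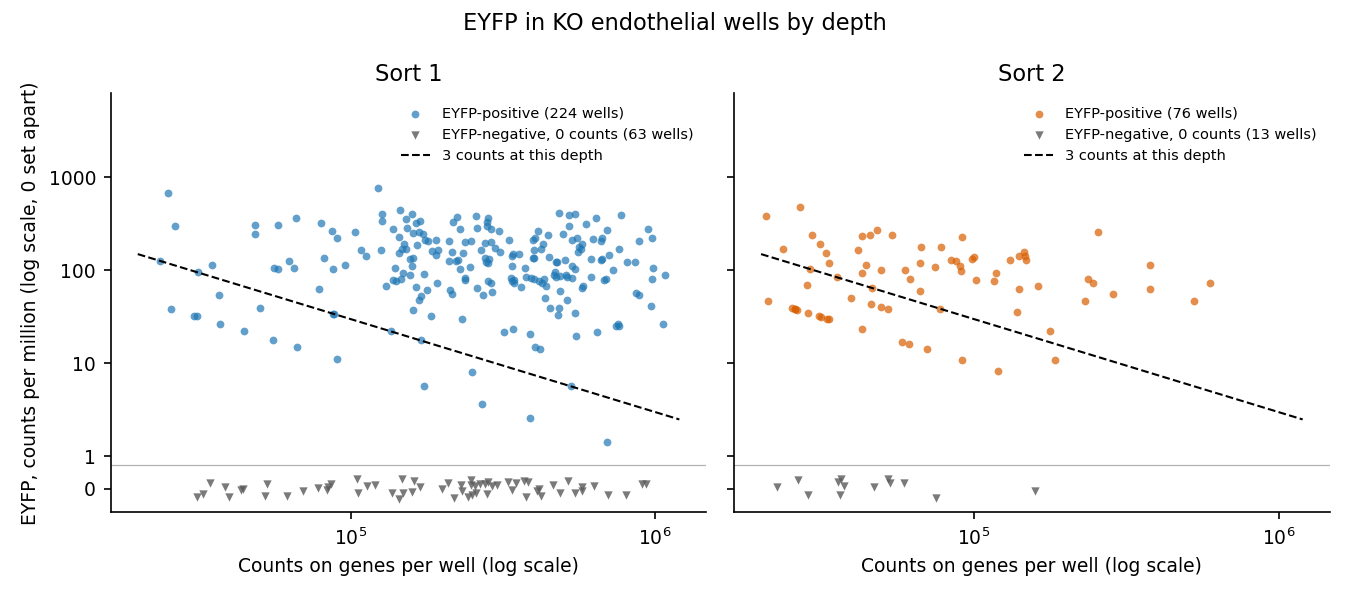
EYFP level in CPM (log scale, wells with no read set apart at 0) against counts on genes per well (log scale) for the 376 KO endothelial wells, 1 panel per sort. Circles are EYFP-positive wells, triangles EYFP-negative wells, and the dashed line marks 3 counts. Negative wells of sort 1 lie at all depths, while 12 of the 13 in sort 2 lie below 100000 counts.

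The positive share varied with depth. In sort 1 it was 13 of 20 wells with 20000 to 50000 counts, 19 of 27 up to 100000, 50 of 62 up to 200000, 62 of 84 up to 400000 and 80 of 94 above. In sort 2 it was 32 of 40, 20 of 24, 15 of 16, 7 of 7 and 2 of 2. The share did not rise at every step in sort 1, and its lowest and highest classes had overlapping intervals, 40.8 to 84.6% and 76.3 to 91.6%.

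The classes differed in the number of genes detected as well. With every well thinned at random to 20000 counts, the median was 2704 genes in positive and 2237 in negative wells of sort 1, and 3496.5 and 3344 in sort 2. Spike-in RNA made up a median of 2.47% and 3.79% of the counts on genes and spike-ins in sort 1 and 1.94% and 2.24% in sort 2, in the same order. The ribosomal RNA gene Rn45s took 11.9% and 12.8% of gene counts in sort 1 and 12.8% and 15.4% in sort 2. Negative wells thus had fewer genes, more spike-in and more Rn45s in both sorts, and the part of these in the gene differences below was not tested.

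The level of endothelial markers was similar in size in both classes, with the choice of wells by the Cd31 gate and a Cdh5 read fixing part of it. The 16 endothelial genes checked, which include Pecam1 (Cd31) and Cdh5, summed to 15534 and 15950 CPM in positive and negative wells of sort 1 and to 17979 and 17079 CPM in sort 2. In the fit described below 4 of the 16 had an unadjusted p under 0.05, against 3.39% of all genes tested, and 0 were called, against 0.0216%. Erg, an endothelial transcription factor, and Emcn, a surface sialoglycoprotein, had fitted log2 differences of 0.82 and 0.67, positive minus negative, and Sox17, an arterial transcription factor, and Kdr, a VEGF receptor, of -0.58 and -1.48, the last with all 20 negative reads of sort 2 in 1 well. Markers of immune cells stayed at or below 8.36 CPM summed over 7 genes, with Lyz2, Cd3e, Itgam and Csf1r at 0, and those of mesothelium and adipocytes were at 0 in all sums, with red cell genes at most at 0.70 CPM in KO sums. Smooth muscle, fibroblast and immune markers together reached 1000 CPM or more in 36 of 224 positive and 9 of 63 negative wells of sort 1, and in 10 of 76 and 2 of 13 wells of sort 2. A Y-linked gene was detected in 179 and 46 of these wells in sort 1 and in 69 and 13 in sort 2. Xist, the transcript of the inactive X, was detected in 0 positive and 0 negative wells of sort 1 and in 1 and 1 of sort 2. Most wells of each class and sort thus had Y-linked reads and no Xist read, the pattern of male cells. Of 4 Y-linked genes tested 0 were called.

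For the comparison, counts of the thinned wells were summed per class and sort, and the 4 sums were tested with edgeR's quasi-likelihood test with the sort as a block. The sums held 4479332 and 1260000 counts in positive and negative wells of sort 1, and 1519859 and 260000 in sort 2. The negative sum of sort 2 rested on 13 wells. CPM values below are those of the sums, scaled with TMM factors, and fitted differences are log2 values, positive minus negative.

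Few genes differed between EYFP-positive and EYFP-negative ECs. Of 9264 genes tested, 2 passed an adjusted p of 0.05 (0.0216%), Thbs1 higher and Col1a1 lower in positive wells. An unadjusted p below 0.05 was found for 314 genes (3.39%), with fitted differences above 0 in 187 and below 0 in 127. The median difference over all genes was 0.054, and 49.9% of the genes had the same sign in both sorts. The median standard error of 0.60 on the log2 scale limited what could be detected.

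Amotl2 was read at low levels in both classes. Positive wells had 39.1 CPM in sort 1 and 47.0 CPM in sort 2, and negative wells had 45.9 and 71.1 CPM. In WT wells the values were 66.9 and 87.0 CPM. In each sort the order was WT, then EYFP-negative, then EYFP-positive, yet the negative wells of sort 2 lay above the WT wells of sort 1.

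The fitted Amotl2 difference between positive and negative wells was -0.38 ± 0.46 (SE) with a 95% interval from -1.36 to 0.59, an unadjusted p of 0.420 and an adjusted p of 1.00 in edgeR. Within sort 1 the difference was -0.21 and within sort 2 -0.58. The interval thus held both no difference and a fall to less than 50% of the negative level. Over the 18 alternative settings it ran from -0.72 to -0.06, always below 0, and it was called in none of the 16 with a test.

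In a fit of all 6 sums with WT, Amotl2 in positive wells lay below WT by a log2 difference of -0.83 ± 0.32 (SE; unadjusted p 0.0270, adjusted p 1.00 in edgeR). In negative wells the difference from WT was -0.44 ± 0.35 (SE; unadjusted p 0.234, adjusted p 0.874). Both differences use the same WT sums, and neither passed the adjusted threshold.

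The share of wells with an Amotl2 read, with overlapping intervals in the KO classes, did not follow the order of the CPM values. At 20000 counts it was 27.7% of positive wells (95% exact binomial interval 21.9 to 34.0) and 22.2% of negative wells (12.7 to 34.5) in sort 1, and 40.8% (29.6 to 52.7) and 38.5% (13.9 to 68.4) in sort 2. WT wells had 41.9% (35.2 to 48.8) and 54.2% (39.2 to 68.6). Unthinned, the shares were 40.6% and 25.4% in sort 1, 57.9% and 53.8% in sort 2, and 55.8% and 75% in WT. Since the share of positive wells lay above that of negative wells while their CPM lay below, no order between the 2 classes was read from it. In sort 2 the negative level came from 17 reads in 5 wells, and 1 well held 41.2% of them.

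The Amotl2 level by number of EYFP reads differed between the sorts. In sort 1, wells with 0, 1 to 2, 3 to 9, 10 to 29 and 30 or more EYFP reads had a mean Amotl2 level of 48.4, 16.7, 34.6, 35.9 and 51.3 CPM over wells, without TMM scaling. In sort 2 the first 4 classes had 65.4, 47.7, 32.0 and 57.7, and the last held 3 wells and no Amotl2 read. Among positive wells the level was thus higher at each step of EYFP reads in sort 1 and not in sort 2. The median depth of these classes was higher at each step in both sorts, and its part was not tested. Amotl2 was read in 35 of the 119 thinned wells of sort 1 that held 30 or more EYFP reads (29.4%, 21.4 to 38.5).

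**Figure D2:**
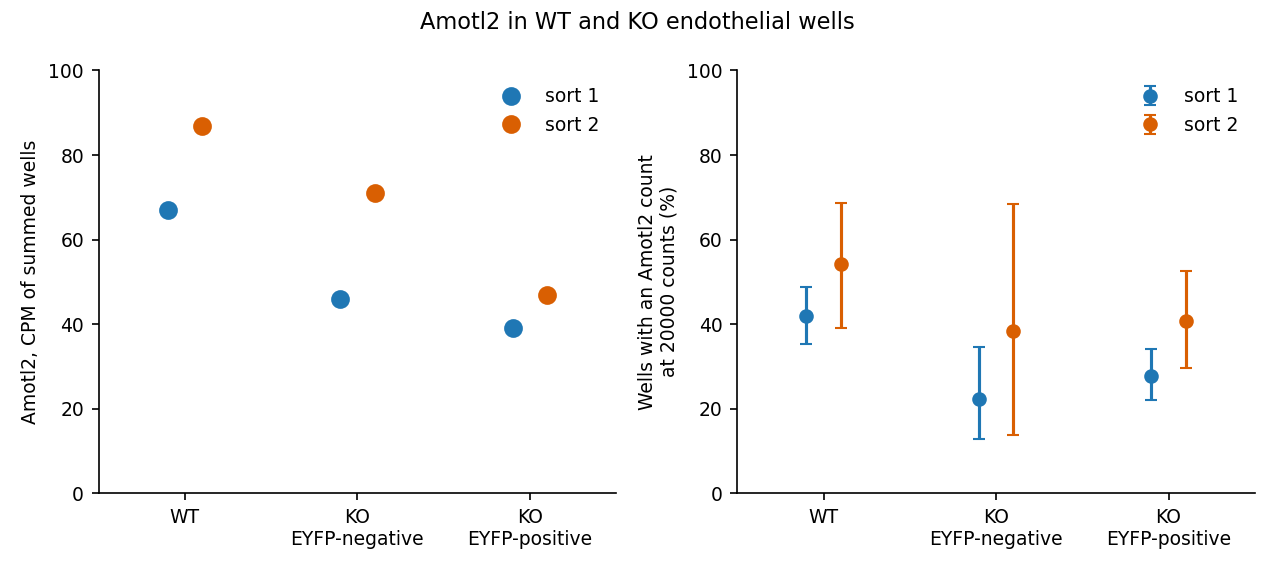
Amotl2 in WT, EYFP-negative KO and EYFP-positive KO endothelial wells, by sort. Left, CPM of the summed wells, 1 point per sort; right, share of wells with an Amotl2 read at 20000 counts, with 95% exact binomial intervals. The CPM falls from WT to positive wells in each sort, and the intervals of the 2 KO classes overlap.

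The list of 11 angiomotin and Hippo genes, relatives and partners of AmotL2, had 10 tested. Of these 0 were called and 2 had an unadjusted p under 0.05, against 0.0216% and 3.39% of all genes, with 2 members above 0 and a median of -0.36. Nf2, the tumour suppressor merlin that binds angiomotins, had 27.7 and 17.5 CPM in positive wells of sorts 1 and 2 and 39.9 and 112.9 CPM in negative wells (log2 difference -1.50, unadjusted p 0.0170). Amot, the founding member of the family, had 7.17 and 7.01 CPM in positive wells and 22.6 and 33.5 CPM in negative wells (-1.89, unadjusted p 0.0414), but 1 well held 70.0% of the negative reads in sort 1 and 1 well held all of them in sort 2. Amotl1, the third family member, had 142 and 144 CPM against 120 and 117 CPM, a difference of 0.28. Yap1 was at -0.35 and Wwtr1 (TAZ) at 0.48.

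Genes that YAP is known to raise gave 7 tested of 10, with 0 called, 0 at an unadjusted p under 0.05 and a median of -0.13. Cyr61, a secreted matrix protein and a common YAP readout, had 1019 and 1515 CPM in positive wells and 838 and 1689 CPM in negative wells, higher in sort 1 and lower in sort 2. Ctgf, another, had 48.1 and 134.6 CPM against 53.5 and 209.1 CPM.

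Thbs1 gave the clearest difference between the classes. It encodes thrombospondin-1, a secreted matrix glycoprotein that restrains angiogenesis and activates latent TGF-beta (chr2:118111876-118127133, plus strand). Positive wells had 785 CPM in sort 1 and 1165 CPM in sort 2, and negative wells had 334 and 288 CPM. The fitted log2 difference was 1.61 ± 0.21 (SE), a 3.05-fold higher level, with an adjusted p of 0.00291 in edgeR and values of 1.25 and 2.02 within the sorts.

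More than single wells carried the Thbs1 level in positive wells. Thinned to 20000 counts, 42.0% of positive and 36.5% of negative wells had a Thbs1 read in sort 1, and 61.8% and 46.2% in sort 2, with overlapping intervals in both sorts, so the classes were set apart more by the amount than by the share of wells. The well richest in Thbs1 held 7.04% and 8.73% of the reads in positive sums and 25.3% and 65.2% in negative sums. Without the sort as a block the difference of 1.65 had an adjusted p of 1.00 in edgeR. Without the positive sum of sort 2, in a fit that also had no block, it was 1.36. In the fit of all 6 sums it was 1.55 with an adjusted p of 0.999. In WT wells Thbs1 stood at 324 CPM in sort 1, near the negative wells, and at 739 CPM in sort 2, between the classes.

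Col1a1 (chr11:94936224-94953042), which encodes the alpha 1 chain of fibrillar collagen I and is made mainly by fibroblasts, was the other gene called. It had 10.2 and 0 CPM in positive wells and 153.6 and 12.6 CPM in negative wells, with a log2 difference of -4.10 ± 0.67 (SE) and an adjusted p of 0.0351 in edgeR. These values rested on very few wells. In sort 1, 1 well held 81.9% of the 204 negative reads, and in sort 2, 3 reads in 1 well made up the whole negative value. The first of these wells also held most reads of Col1a2, Col3a1 and Lum among negative wells of its sort and had 50327 CPM of smooth muscle, fibroblast and immune markers, beside 13 Cdh5 and 380 Pecam1 reads before thinning. When wells with 1000 CPM or more of those markers were left out, Col1a1 no longer passed the filter on low counts and was not tested. It also missed the threshold in edgeR without the sort as a block (adjusted p 1.00) and with RLE factors (0.0746). The same held in unthinned wells (0.337) and in the fit with WT (0.279). In fits with no block the difference was -3.10 without the positive sum of sort 2 and -1.04 without the negative sum of sort 1.

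Among the 10 genes with the largest fitted increase at an unadjusted p under 0.05 and a mean of at least 50 CPM, Thbs1 included, Cxcl12 had the most even values in the sorts but was not called. It encodes the chemokine that signals through Cxcr4 and Ackr3 and marks arterial ECs (chr6:117168535-117181367, plus strand). Positive wells had 332 and 290 CPM and negative wells 150 and 130 CPM, against 118 and 206 CPM in WT. The log2 difference was 1.17 ± 0.25 (SE), 1.16 within each sort, with an unadjusted p of 0.000164 and an adjusted p of 0.380 in edgeR. The share of thinned wells with a Cxcl12 read was 38.4% and 36.5% in sort 1 and 63.2% and 38.5% in sort 2, positive first. Cxcl12 was called in 3 of 17 fits, among them that with wells of 1 or 2 EYFP reads left out (1.30, adjusted p 0.0424 in edgeR), and not in the other 14, among them those in wells of at least 50000 counts (0.85), without the block (1.15) and in unthinned wells (1.21), each with an adjusted p of 1.00.

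The other 8 genes in this group besides Thbs1 were BC003331, Snx5, Mtmr2, Fam120a, Pqlc1, Fam63a, Fcho2 and Adam9, with fitted differences from 1.10 to 1.43 and adjusted p of 1.00 in edgeR. Mtmr2, a phosphoinositide phosphatase, had 90.3 and 99.6 CPM in positive and 42.2 and 37.6 CPM in negative wells, but its difference of 1.23 was 0.62 in another random draw and 0.61 in unthinned wells. Adam9, a membrane-bound metalloprotease, had 73.3 and 101 CPM against 37.6 and 41.8 CPM, and its difference of 1.10 was 0.55 in unthinned wells. Snx5, a sorting nexin, had 112 and 118 CPM against 79.1 and 12.6 CPM, the last from 2 wells. Snx5, Fam120a, Pqlc1 and Fam63a had differences of 0.45 to 0.56 in sort 1 and 2.25 to 3.14 in sort 2, and BC003331 had 2.41 and 0.26. Without the negative sum of sort 2 Snx5 was at 0.55, Fam120a at 0.74, Pqlc1 at 0.64 and Fam63a at 0.52. Without that of sort 1 BC003331 was at 0.20. These fits had no sort block.

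The 10 genes with the largest fitted decrease by the same rule, none of them called, differed in how many wells carried them. Ogn, Sparcl1, Synpo2 and Col1a2 had differences of -3.0, -1.87, -1.83 and -1.60. Ogn, a small matrix proteoglycan, had 45.1 and 4.18 CPM in positive and 140.8 and 192.4 CPM in negative wells, where 1 well held 70.1% of the reads in sort 1 and 1 well held all 46 in sort 2. Sparcl1, a matrix protein, reached 640 CPM in negative wells of sort 2 and 86.6 CPM in sort 1, with 54.9% of the former in 1 well.

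Rhog, Tmem173, Fgl2, Bet1, Smad4 and Inafm2 had differences between -1.38 and -1.20, adjusted p from 0.625 to 1.00 in edgeR, and higher levels in negative wells of both sorts. Tmem173, the innate immune adaptor STING, had 25.4 and 42.1 CPM in positive and 68.5 and 100.4 CPM in negative wells, and Smad4, the shared mediator of TGF-beta and BMP signals, had 32.6 and 33.7 CPM against 86.6 and 75.3 CPM, with 61.1% of the last in 1 well. Rhog, a small GTPase that acts on Rac, had 32.0 and 28.0 CPM against 90.4 and 66.9 CPM, with reads in 22 of 63 and 7 of 13 negative wells. Fgl2, a membrane prothrombinase, had 76.2 and 45.6 CPM against 219 and 96.2 CPM, and 41.0 and 25.2 CPM in WT. In negative wells of sort 1, 1 well held 46.4% of the 291 Fgl2 reads. Without that sum, in a fit with no sort block, the difference was -0.60.

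**Figure D3:**
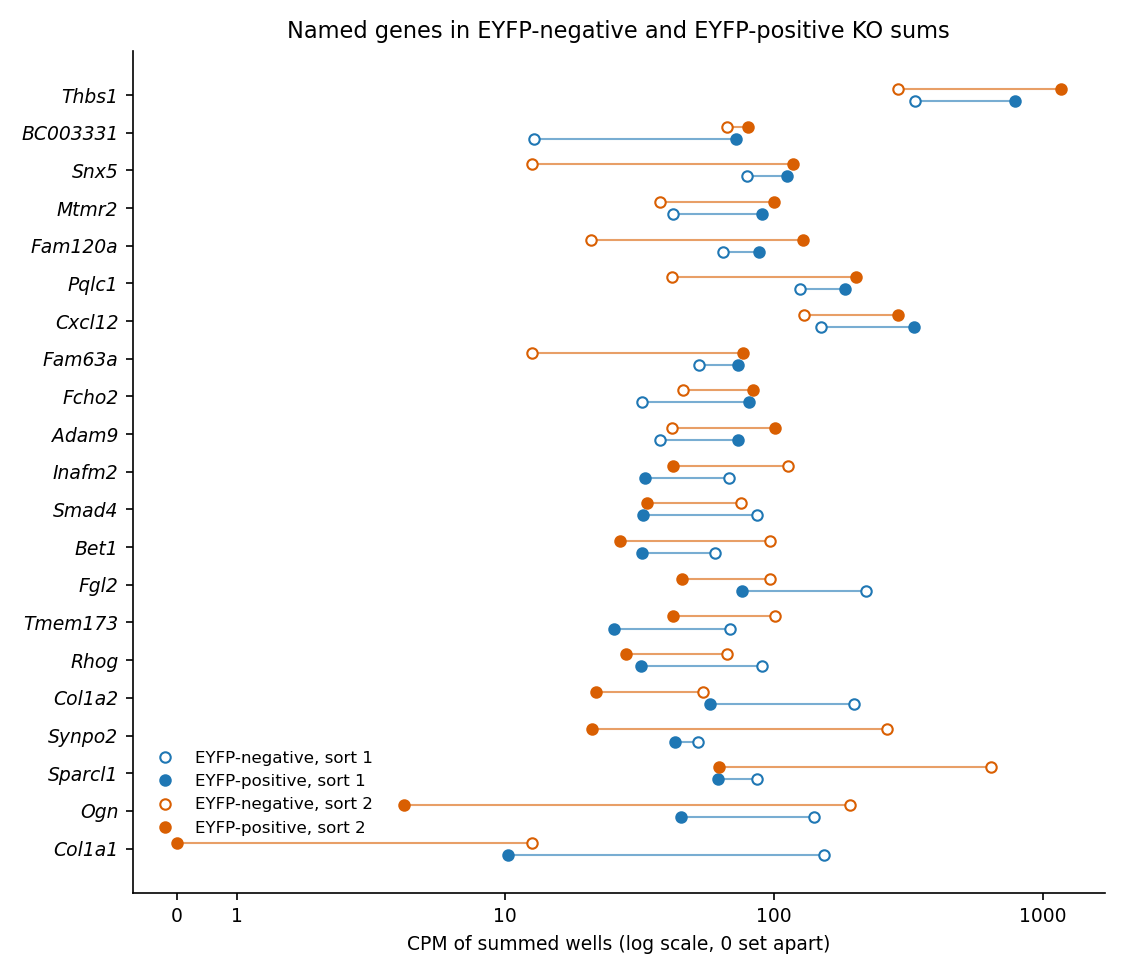
CPM of the summed wells (log scale, 0 set apart) for Thbs1, Col1a1 and the 19 other genes with the largest fitted differences at an unadjusted p under 0.05. Open circles are EYFP-negative sums, filled circles EYFP-positive sums, and a line joins the classes of a sort. All of these genes were chosen for the same direction in both sorts, Thbs1 and Col1a1 alone were called, and the size of many differs several-fold between sorts.

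Lists of junction, cytoskeleton and flow genes had medians from -0.027 to 0.18, against 0.054 for all genes, and members on both sides of 0. The 13 junction genes had 0 called and 1 at an unadjusted p under 0.05, against 0.0216% and 3.39% of all genes. Their median was -0.027, and their values lay between -0.76 and 0.14. Cdh5 itself, whose presence the choice of wells required, had 262 and 191 CPM in positive and 341 and 222 CPM in negative wells (log2 difference -0.30 ± 0.24 SE, adjusted p 1.00 in edgeR). Ctnnb1 (beta-catenin) had 440 and 446 CPM against 396 and 447 CPM. Mllt4 (afadin), which ties junctions to actin, was the member with the unadjusted p under 0.05, at 82.3 and 116.4 CPM against 112.2 and 255.1 CPM, with 59.0% of the last in 1 well.

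The 13 actin genes had 0 called, 1 at an unadjusted p under 0.05 (3.39% of all genes), and opposite signs between sorts in 11. Actb had 2037 CPM in positive and 1825 in negative wells of sort 1, but 3305 and 5039 in sort 2. The 8 nuclear lamina and LINC complex genes had 6 tested, with 0 called and a median of -0.013. The laminar flow list had 8 of 10 tested with 0 called and a median of 0.18, and Klf2, a transcription factor that shear stress raises, had 113 and 98.9 CPM in positive and 101 and 71.1 CPM in negative wells.

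Of the 9 arterial genes 0 were called (median -0.18), and the arterial gap junction gene Gja5 had 1364 and 1613 CPM against 1382 and 1284 CPM. The 3 venous genes had 0 called and 1 at an unadjusted p under 0.05, against 3.39% of all genes. Ackr1, the atypical chemokine receptor of venules, was read in positive but not in negative KO wells, at 6.76 and 67.3 CPM. There were 224 and 76 positive but only 63 and 13 negative wells in sorts 1 and 2. With no sum left out, Ackr1 was called only without the filter on low counts and with EYFP called after thinning. The lymphatic list had 3 of 7 tested and 0 called, and 1 negative well of sort 1 held 96.2% of the Mmrn1 reads. Genes near the ROSA26 locus, where the reporter sits, had 3 tested and 0 called, all below 0. Gt(ROSA)26Sor, the transcript of the locus itself, was at -1.50 ± 1.46 (SE) from 4 to 11 reads a sum, Setd5 at -0.84 and Thumpd3 at -0.035.

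The 8 genes of the pathways the study named were chosen there on these same cells and so are no independent evidence. They had 6 members above 0, a median of 0.20 and 0 called, against 0.0216% of all genes. An unadjusted p under 0.05 was found for 3, against 3.39% of all genes. Besides Cxcl12 these were Ackr3, its scavenging receptor, at 604 and 882 CPM in positive and 495 and 640 CPM in negative wells (0.38), and Gdf6, a BMP family ligand, at 21.5 and 82.0 CPM against 9.79 and 0 CPM.

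Inflammatory genes had 7 of 11 tested, 0 called and 2 with an unadjusted p under 0.05, against 0.0216% and 3.39% of all genes. Selp, the P-selectin that captures leukocytes, had 306 and 545 CPM in positive and 251 and 284 CPM in negative wells (0.61, unadjusted p 0.0161), with 45% of the positive reads of sort 2 in 1 well, and Sele (E-selectin) had 18.8 and 38.6 CPM against 9.04 and 0 CPM, where a single well held all negative reads. Vcam1 had 774 and 1188 CPM against 753 and 1786 CPM, and Icam1 354 and 514 CPM against 328 and 426 CPM. Ccl2 and Tnf were at 0 in all sums. Genes raised by tissue dissociation had 10 tested and 0 called, and Fos was lower in positive wells, 481 and 531 CPM against 715 and 677 CPM (-0.45, unadjusted p 0.0254). Proliferation genes were too low to test, at most 19.9 CPM summed over 6 genes in a KO sum.

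MHC class II and interferon-induced genes set WT wells of sort 1 apart from both KO classes and did not separate the classes from each other. The 6 MHC class II genes tested had 0 called between positive and negative wells and opposite signs in the sorts for all 6. Cd74, the invariant chain, had 21.9 CPM in positive and 31.6 CPM in negative wells of sort 1 against 2925 CPM in WT, and 91.9, 37.6 and 26.2 CPM in sort 2. H2-Aa, a class II alpha chain, had 42.2, 57.2 and 1312 CPM in sort 1 and 136, 83.6 and 95.3 CPM in sort 2, in the same order. The negative wells of sort 1 were thus far below the WT wells of that sort, as the positive wells were, and in sort 2 no such gap was seen.

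The 19 interferon-induced genes tested had 0 called, 0 at an unadjusted p under 0.05 and a median of -0.12 between the classes. Iigp1, an immunity-related GTPase, had 235 and 282 CPM in positive and negative wells of sort 1 against 1402 CPM in WT, and 344, 259 and 359 CPM in sort 2. Gbp2, a guanylate-binding protein, had 184, 234 and 1079 CPM in sort 1 and 207, 272 and 267 CPM in sort 2. Members of the class II, Gbp and Irgm families share sequence, and their single values are uncertain to that degree.

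**Figure D4:**
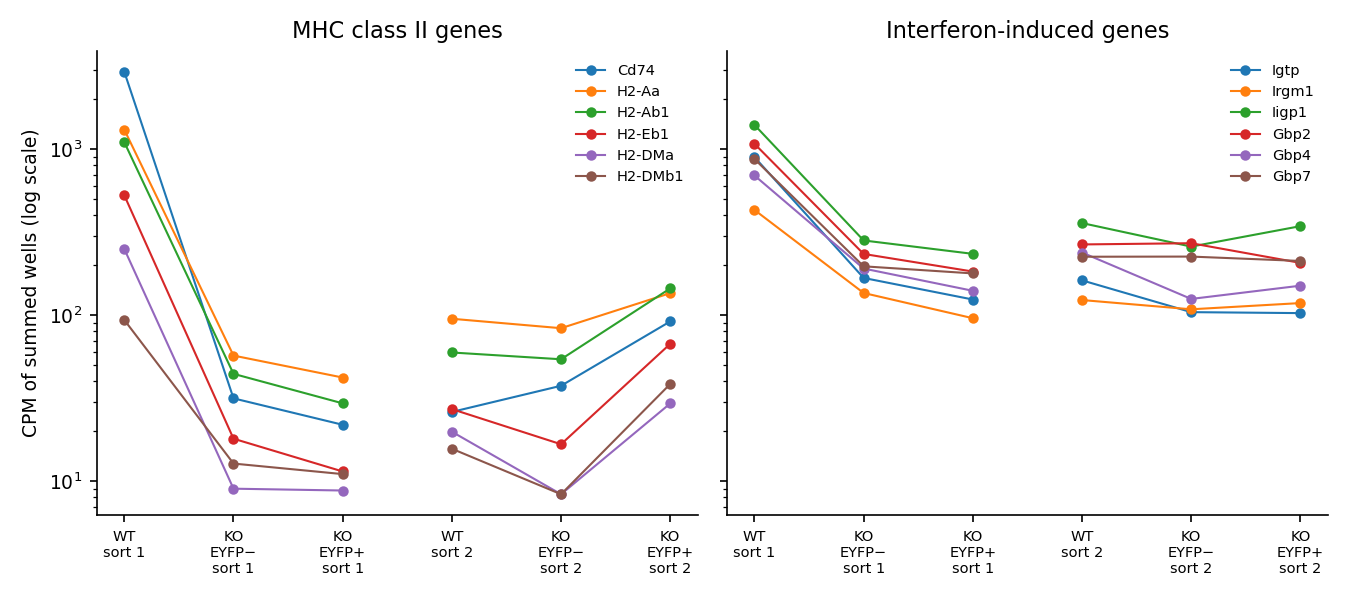
CPM of the summed wells (log scale) of 6 MHC class II and 6 interferon-induced genes in WT, EYFP-negative and EYFP-positive KO wells of each sort, a line per gene within a sort. In sort 1 both KO classes lie below WT for every gene shown; in sort 2 the WT sum is not set apart in this way.

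Against WT in the 6-sum fit, few genes were called for either class. For EYFP-negative wells 1 of 9710 genes was called (0.0103%), Col1a1, and 649 had an unadjusted p under 0.05 (6.68%). For EYFP-positive wells edgeR called 0 (0%) and DESeq2 5, with 199 at an unadjusted p under 0.05 in edgeR (2.05%). All 6 class II genes tested were below WT in both classes, with medians of -3.70 in negative and -2.50 in positive wells, and 6 and 2 of them had an unadjusted p under 0.05. Of 19 interferon-induced genes 17 were below WT in negative and 19 in positive wells, with medians of -1.09 and -1.20. These differences share the WT sums and rest on WT wells of sort 1, whose plate held no KO cells. Thbs1 differed from WT by 0.94 in positive and -0.61 in negative wells, and Cxcl12 by 0.98 and -0.15, none of them called.

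Genes of smooth muscle and of capillary endothelium went in opposite directions in the sorts, and few wells carried most of their reads in either class. Of the 5 smooth muscle genes and the 5 capillary genes tested, 0 were called, and all had opposite signs in the sorts. Acta2, smooth muscle actin, had 671 CPM in positive and 209 CPM in negative wells of sort 1 but 423 and 3040 CPM in sort 2. Cd36, the fatty acid transporter of capillaries, had 275 and 136 CPM in sort 1 and 124 and 1543 CPM in sort 2. In sort 1 the positive sum was the higher one, with Acta2 reads in 60 wells and Cd36 reads in 9, and single positive wells reached 57607 CPM of smooth muscle genes and 40574 CPM of capillary genes. In the negative sum of sort 2, 1 well held 96.0% of the Acta2 reads and all of those of Myh11 and Cnn1, together with the Ogn and Col1a1 reads described above, and had 2 Cdh5 and 184 Pecam1 reads. A second well held all Cd36 reads and 98.4% of the Fabp4 reads, with 0 CPM of smooth muscle, fibroblast and immune markers. The fibroblast gene Dcn, at 828 CPM in negative and 73.3 CPM in positive wells of sort 1, had 0 and 154 CPM in sort 2. Of the fibroblast list 4 of 6 genes were tested, 1 was called (Col1a1) and the median was -1.34. The pericyte list had 2 of 6 tested and 0 called.

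**Figure D5:**
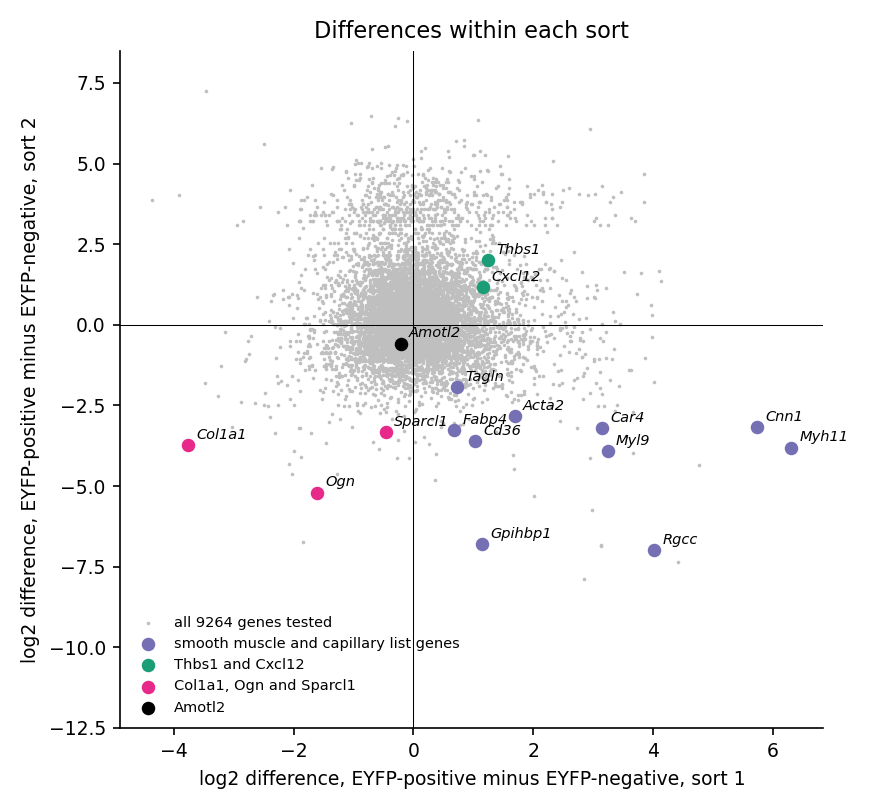
Log2 difference of EYFP-positive minus EYFP-negative sums in sort 1 (horizontal) and sort 2 (vertical), a point per gene for the 9264 genes tested, with named genes coloured. Thbs1 and Cxcl12 lie in the upper right, Col1a1, Ogn and Sparcl1 in the lower left, and smooth muscle and capillary genes in the lower right, higher in positive wells of sort 1 and lower in those of sort 2.

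With the wells high in markers of smooth muscle, fibroblasts or immune cells left out, 188 positive and 54 negative wells of sort 1 and 66 and 11 of sort 2 remained. Thbs1 was then at 1.31 with an adjusted p of 9.03e-07, Cxcl12 at 0.93 with an adjusted p of 0.308, and Amotl2 at -0.31 with an adjusted p of 1.00, all in edgeR. There were 4 genes called, Thbs1 higher and Cd36, Fabp4 and Sparcl1 lower in positive wells, the last 3 with most of their negative reads of sort 2 in the well that held the Cd36 reads.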

How the data were processed

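Single aortic cells were sequenced with Smart-seq2. The authors aligned the reads to GRCm38 with added spike-in and EYFP sequences (STAR 2.7.7a), removed duplicates (Picard 2.22.0) and summarised the reads over genes (HTSeq 0.9.1). The deposited values are these raw counts per gene and well. The annotation release is not given in the sources used here. Genes took 51.9% of all counts, and spike-ins (1.25%) and lines that name no gene (14.3% on no feature, 0.586% ambiguous, 32.0% aligned to several places) entered neither library sizes nor tests.

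Wells were kept and classed as the report states, thinned to 20000 counts by random draws without replacement and summed per class and sort. Between 20577 and 2000302 counts lay on genes in a well of these classes or of WT. Sums were tested with edgeR 4.0.16 (TMM, filterByExpr, glmQLFit, glmQLFTest, two-sided, Benjamini-Hochberg over all genes tested, threshold 0.05) in R 4.3.3 with the sort as a block. The classes of a sort come from the same pool of mice and plate, which pairs them, and after removal of class means the sums of a sort correlated by 0.0617. The common biological coefficient of variation was 0.331, and the spread that edgeR shared over genes had a median of 17.9 prior degrees of freedom. Fits of the EYFP classes with a sum left out had no block. Differences within a sort used log2 CPM with a prior count of 2. DESeq2 1.42.0 was the other count test. Both tools were run on simulated sums without sort effects or outlying wells, so their false calls in these data were not tested. Cells were sorted through a singlet gate, and doublets were not called. Whether wells with markers of several cell types were doublets was not tested. Intervals for shares are Clopper-Pearson.

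The classes, the 26 gene lists and the tests were chosen with earlier results of these data known. The text names EYFP, Amotl2, Cdh5, members of the lists, up to 10 called genes per direction with the same sign in both sorts (1 and 1 were found), and up to 10 per direction with the largest fitted difference, an unadjusted p under 0.05, the same sign in both sorts and a mean of at least 50 CPM, out of 141 that met this. Positions are from GENCODE M21, in which 95.7% of the symbols were found. The alternatives were no block, RLE factors, no filter, DESeq2, unthinned wells, another draw, wells of at least 50000 counts, a minimum of 3 EYFP reads, EYFP called after thinning, a fit with WT, each sum left out, each sort alone and, added after seeing the data, leaving out Rn45s or wells with 1000 CPM or more of other cell types' markers.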

Additional observations from a re-analysis of the deposited data

Results flagged for a closer look

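EYFP reads appeared in wells outside the comparison. Among WT endothelial wells, 4 in sort 1 and 2 in sort 2 held EYFP reads. Those of sort 1 held 1, 1, 13 and 80 reads and those of sort 2 held 2 each, and the well with 80 reads was at 153 CPM, within the range of EYFP-positive KO wells. Among the 15 KO wells of the endothelial gate in sort 1 that had no Cdh5 read, 7 held between 1 and 20 EYFP reads, at 9.36 to 473 CPM.

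Of 104 list genes with a mean of at least 50 CPM, 6 had differences of at least 1 on the log2 scale in opposite directions in the sorts, against 21 of all 3330 such genes, and the difference between sorts was not tested. Positive minus negative, in sort 1 and then sort 2, Acta2 was at 1.69 and -2.84, Myh11 at 6.31 and -3.81, Myl9 at 3.24 and -3.91, Cd36 at 1.02 and -3.62, Gpihbp1 at 1.14 and -6.80, and Dcn at -3.46 and 7.24. Myh11 had no read in the negative sum of sort 1 and Dcn none in that of sort 2, so these values depend on the prior count.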

How the results depend on the processing

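The number of genes called between EYFP-positive and EYFP-negative wells, 2 in the fit reported, was 0 without the sort as a replicate block (363 at an unadjusted p under 0.05), 1 with RLE factors, 22 without the filter on low counts, 1 in unthinned wells, 15 in wells of at least 50000 counts, 5 with a minimum of 3 EYFP reads, 7 with EYFP called after thinning, 0 in the fit with WT and 4 without wells high in other cell types' markers. DESeq2 gave 2, another draw 3 and the fit without Rn45s 2. Leaving out each sum gave 4 to 249 calls, with the lone sum assumed to vary like the other class (33 without the positive sum of sort 1, 4 without that of sort 2, 249 without the negative sum of sort 1 and 158 without that of sort 2). Thbs1 was called in 14 of 17 fits. For EYFP-negative wells against WT, 1 gene called became 0 without the replicate block, 0 unthinned, 6 in DESeq2, 100 without the filter and 39 to 268 with a sum left out. For EYFP-positive wells against WT, 0 became 5 in DESeq2, 45 without the filter and 8 to 91 with a sum left out. The causes were not tested. Amotl2 kept its direction and was not called under any alternative, at -0.36 without the replicate block. Signs of most named genes were fixed by their choice, so their number says nothing of stability. Those that turned were Cdh5, at 0.091 in wells of at least 50000 counts and between -0.59 and 0.059 with a sum left out, and Col1a2, at 0.41 without wells high in other cell types' markers.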
